A study of Mus musculus with 2 samples.

Results

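Retnla, Ear2 and Lyz1 myeloid cells were 157 of the 10801 barcodes kept as cells, 49 of 5225 in the shRFP library and 108 of 5576 in the shSdc1 library. Barcodes were kept with 200 or more genes found and less than 10% of UMIs (unique molecular identifiers, each standing for 1 captured transcript) of mitochondrial origin. A cell was selected when its raw UMIs of Retnla, Ear2, Lyz1, Rnase2a and Clec4b1 summed to at least 3, it had at least 1 UMI of Lyz2, and it had none of Cd209a or of the T cell receptor chains Cd3d, Cd3e and Cd3g. These thresholds were set on values of the same cells, after a clustering of them in which Mgl2 also led, so levels of the 5 gate genes and of Mgl2 are given as descriptions, without support from a test.

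The cells came from B16 melanoma tumors in wild-type mice. All mice had first been vaccinated with irradiated B16 cells that secrete GM-CSF, and 12 days later received B16 cells with a short hairpin RNA. In 1 group (shSdc1) the hairpin targeted Sdc1, which encodes syndecan-1, a proteoglycan of the cell surface, and in the control group (shRFP) it was named for RFP. After 16 more days, 6 tumors of a group were pooled, live CD45+ cells were sorted, and 1 droplet library (10x 3' chemistry) was made per group. Under genotype, the labels list shSdc1 as a knockout, whereas its title and protocol describe a hairpin in the injected tumor cells. Sdc1 had 106 UMIs in shRFP and 86 in shSdc1 among the sorted cells, which were not the cells that received the hairpin, so these counts do not check the label. The selected cells held 0 and 8 of them. With 1 library of pooled tumors per group, a difference between shSdc1 and shRFP has no replicate check, and the intervals below cover counting error only.

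Retnla encodes RELM-alpha, a secreted protein that macrophages make after IL-4 or IL-13 signals through STAT6. Ear2 and Rnase2a encode secreted ribonucleases of the eosinophil-associated family, Lyz1 encodes a lysozyme, and Clec4b1 encodes a C-type lectin receptor. Mgl2 encodes CD301b, a galactose-binding C-type lectin of tissue macrophages and type 2 dendritic cells, which present antigen on MHC class II molecules, whereas macrophages rich in complement C1q clear debris and handle lipid.

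The 250 bases before the RefSeq start of 4 gate genes were read to show upstream sequence of the genes that defined these cells (RefSeq promoter table, build GRCm38.p6). Capitals mark matches, on either strand, to a STAT6-type motif (TTCNNNNGAA), a C/EBP-type motif (TTGCNNAA) or a PU.1-type motif (GAGGAA). The Retnla stretch ends where the GENCODE M21 gene model begins.

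Retnla, chr16:48842359-48842550, plus strand: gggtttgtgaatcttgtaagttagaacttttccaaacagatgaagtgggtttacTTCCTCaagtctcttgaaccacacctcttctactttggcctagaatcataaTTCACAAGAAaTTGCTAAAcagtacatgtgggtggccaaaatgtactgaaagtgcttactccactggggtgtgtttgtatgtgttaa
Ear2, chr14:44102404-44102653, plus strand: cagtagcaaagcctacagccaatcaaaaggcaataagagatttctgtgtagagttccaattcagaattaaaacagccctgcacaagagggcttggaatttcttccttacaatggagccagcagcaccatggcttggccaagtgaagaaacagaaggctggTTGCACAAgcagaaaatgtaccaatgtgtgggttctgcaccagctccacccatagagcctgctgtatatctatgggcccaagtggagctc
Rnase2a, chr14:51256113-51256362, minus strand: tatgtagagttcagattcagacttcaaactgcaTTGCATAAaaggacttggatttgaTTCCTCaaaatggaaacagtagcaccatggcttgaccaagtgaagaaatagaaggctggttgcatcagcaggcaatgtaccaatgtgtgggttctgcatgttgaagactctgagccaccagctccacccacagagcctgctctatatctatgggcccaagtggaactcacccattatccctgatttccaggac
Lyz1, chr10:117292869-117293118, minus strand: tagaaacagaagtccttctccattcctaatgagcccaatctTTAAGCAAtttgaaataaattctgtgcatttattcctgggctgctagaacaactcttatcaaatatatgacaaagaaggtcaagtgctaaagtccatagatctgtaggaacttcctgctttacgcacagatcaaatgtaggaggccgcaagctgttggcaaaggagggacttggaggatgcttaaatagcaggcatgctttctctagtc

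These 4 windows each held a C/EBP-type match, the window of the remaining gate gene, Clec4b1, and that of Mgl2 held none, and 9.56% of 32851 promoter windows of the same length held one. Only the Retnla window among these 4 also held a STAT6-type match, from base -145 to base -136 before the start, a motif present in 5.85% of all windows. PU.1-type matches stood in the Retnla and Rnase2a windows and in 23.3% of all windows. The Clec4b1 window held 2 PU.1-type matches, the Mgl2 window held 1, and the window of Lyz2 held none of the 3 motifs. A match is a description of letters, and binding was not measured.

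The selected cells carried the gate genes in different combinations, and their balance differed between the libraries. In shRFP 21 of 49 cells (42.9%) had a Retnla UMI and 28 (57.1%) had an Ear2 UMI, whereas in shSdc1 81 of 108 (75%) had Retnla and 52 (48.1%) had Ear2. Lyz1 was found in 16 (32.7%) and 35 (32.4%) cells, Clec4b1 in 16 (32.7%) and 24 (22.2%), and Rnase2a in 1 (2.04%) and 15 (13.9%). The plot of cells with each gate gene shows that Retnla differed most between the libraries in percentage points. In proportion Rnase2a differed more, from a single shRFP cell. Thinned to 500 UMIs a cell, which left out 4 and 17 selected cells, Retnla was found in 35.6% of shRFP and 65.9% of shSdc1 cells, and Ear2 in 40% and 29.7%.

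**Figure D1:**
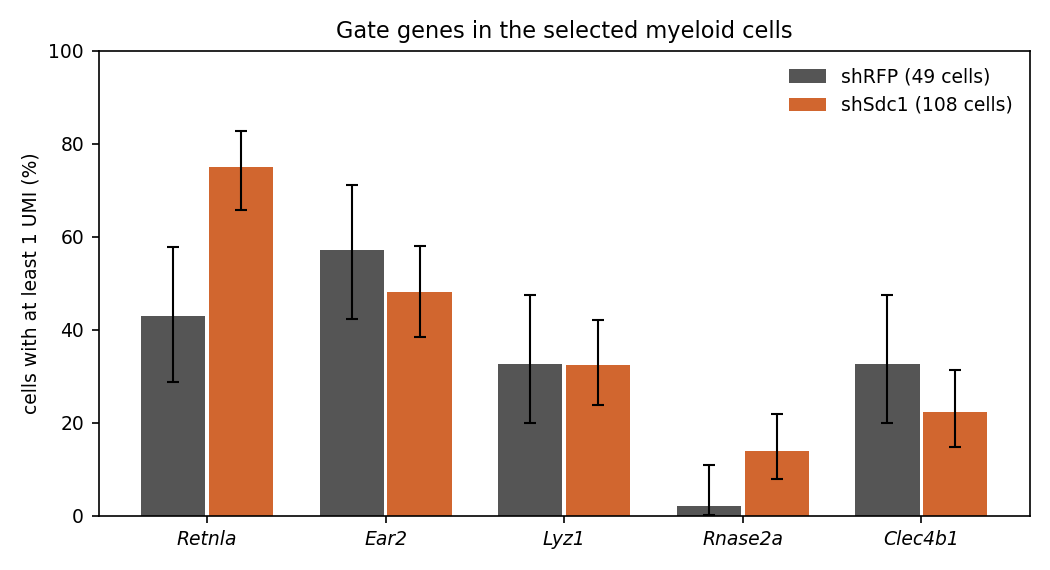
Share of the selected cells with at least 1 UMI of each gate gene (percent, unthinned), for shRFP (grey, 49 cells) and shSdc1 (orange, 108 cells). Bars show the share and whiskers its 95% exact binomial interval, which covers counting error only. Retnla stands at 42.9% in shRFP and 75% in shSdc1, and Lyz1 at 32.7% and 32.4%.

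Summed over the selected cells, Retnla held 97 UMIs in shRFP and 738 in shSdc1, or 1695 and 6843 CPM (counts scaled to 1e6 UMIs of those cells). The ratio of shSdc1 to shRFP was 4.04 (95% exact conditional interval 3.26 to 5.04). A single shRFP cell carried 25 of the 97 UMIs, and without the highest cell of each library the ratio was 5.01 (3.93 to 6.48). Ear2 stood at 1415 and 890.2 CPM, a ratio of 0.629 (0.463 to 0.856), and Clec4b1 at 629 and 343 CPM, a ratio of 0.545 (0.335 to 0.888). Lyz1 stood at 1241 and 1113 CPM, a ratio of 0.897 (0.663 to 1.22). Rnase2a, with 1 and 31 UMIs, stood at 17.5 and 287 CPM. Cells were chosen by these same counts, so the ratios describe which gate gene brought a cell in.

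A selected cell rarely carried many gate genes at once. In shRFP 21 cells had 1 of the 5 genes, 24 had 2, 3 had 3 and 1 had 4. In shSdc1 the numbers were 33, 53, 20 and 2, and no cell of either library had all 5. Retnla and Ear2 were found together in 7 of 49 and 33 of 108 cells, and Retnla and Lyz1 in 11 and 26. The label therefore names a group of cells joined by a sum, not cells that each express Retnla, Ear2 and Lyz1. The median gate sum was 4 UMIs in shRFP and 6 in shSdc1, and the highest was 39 and 61. Of the 54 and 119 kept barcodes with a sum of at least 3, 1 and 4 had a Cd3 UMI, 3 and 4 had no Lyz2, and 1 and 5 had Cd209a, some of them more than 1 of these, and were left out. At the edge, 16 and 22 cells had a sum of exactly 3, and 42 and 37 kept barcodes had a sum of 2. Of the cells at a sum of 3, 12.5% in shRFP and 45.5% in shSdc1 had a Retnla UMI, against 4.76% and 21.6% of the barcodes at a sum of 2.

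**Figure D2:**
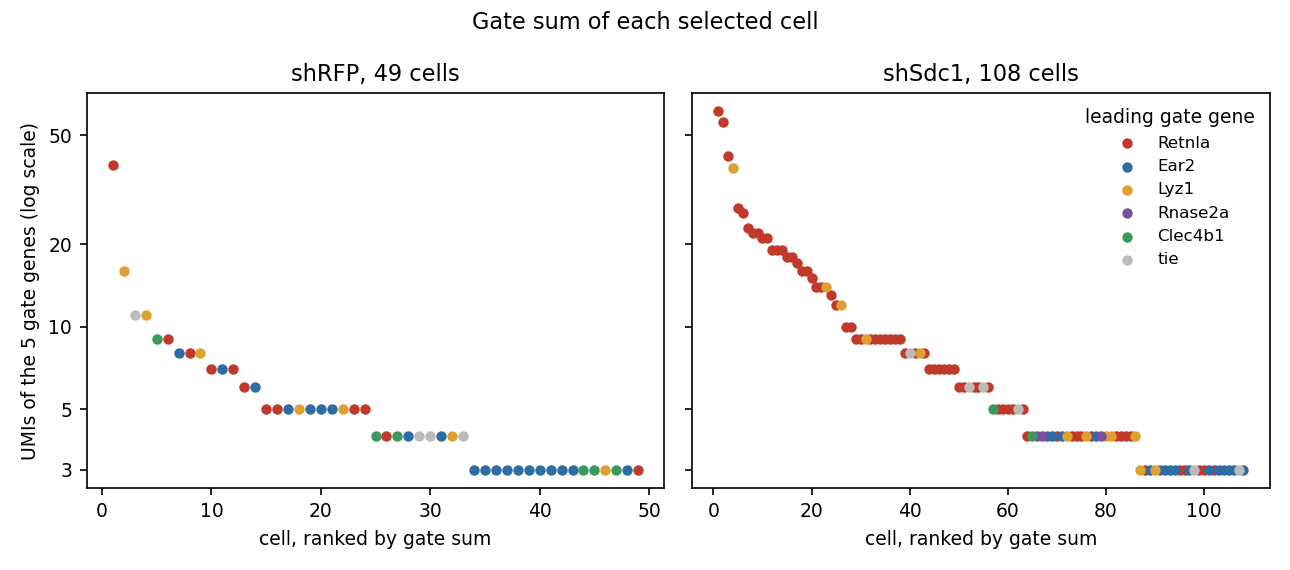
UMIs of the 5 gate genes in each selected cell (vertical axis, log scale), ranked within shRFP (49 cells) and shSdc1 (108 cells) and coloured by the gate gene with most UMIs. Retnla led in 69 of the shSdc1 cells and 12 of the shRFP cells, and Ear2 led in 16 and 20.

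The 2 libraries' selected cells held most Retnla of the kept barcodes, 87.4% of its UMIs in shRFP and 91.2% in shSdc1, and 65.1% and 72.7% of Lyz1. They held 38.8% and 46.4% of Ear2 and 18.9% and 21.4% of Clec4b1, so these genes were also spread over other cells. T cells served as background for free RNA: Retnla was found in 0 of 391 T cells in shRFP, which allows a share of up to 0.767%, and in 0.125% of 798 in shSdc1. Ear2 and Rnase2a had 0 UMIs in the T cells of either library. Median depth was 1092 and 886.5 UMIs in the selected cells and 502 and 560.5 in the T cells.

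Near-identical copies limit which gene a read belongs to. Over aligned bases, Lyz1 and Lyz2 transcripts were 96.0% identical, Ear2 and Ear1 96.8%, and Ear2 and Ear10 94.7%. How many Lyz1 or Ear2 counts belong to a copy was not measured, and percent identity does not give that number. The monocytes described below, limited to a gate sum under 3 per cell, had 3033 and 499 Lyz2 UMIs and 2 and 0 Lyz1 UMIs. Ear1, Ear6, Ear10, Ear14 and Rnase2b had 0 UMIs in the selected cells. Ear2 lies on chromosome 14 from 44102654 to 44103534 and Lyz1 on chromosome 10 from 117287797 to 117292868, next to Lyz2 (117277331 to 117282321). Retnla lies on chromosome 16 from 48842551 to 48844461 (GENCODE M21, mm10).

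Markers of granulocytes and lymphocytes were at or near 0 in the selected cells. The 6 eosinophil markers (Siglecf, Ccr3, Prg2, Epx, Il5ra and Prg3) and the 7 basophil and mast cell markers all had 0 UMIs in both libraries, which allows a share of up to 6.12% of shRFP and 2.78% of shSdc1 cells with such a UMI. The 11 neutrophil markers summed to 0 and 13 UMIs, with S100a8 among the 5 found in shSdc1 and Ly6g, Retnlg, Camp and Ngp at 0. The 8 T cell genes summed to 0 and 5 UMIs, the 6 NK cell genes to 0 and 2, the 7 B and plasma cell genes to 0 and 1, and the 6 melanoma genes to 1 and 2. Lyz2 stood at 15480.3 and 13232 CPM. The gate itself asked for Lyz2 and for no UMI of Cd3d, Cd3e and Cd3g, so the Lyz2 level and those 3 of the T cell genes do not check the label.

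Many selected cells also met the criterion of a neighbouring population. In shRFP 26 of 49 cells (53.1%) and in shSdc1 66 of 108 had at least 3 UMIs of C1qa, C1qb and C1qc, the criterion of the C1q macrophages (1093 and 1571 cells with a gate sum under 3). At least 3 UMIs of the class II genes H2-Aa, H2-Ab1 and H2-Eb1, a criterion of the type 2 dendritic cells (132 and 98 cells, which also have Cd209a), were found in 42 of 49 and 89 of 108. In shRFP 22 and in shSdc1 52 cells met both. Only 1 cell of each library met the criterion of the monocytes (199 and 35 cells with at least 3 UMIs of Ly6c2 and Chil3). Type 2 dendritic cells and monocytes also had to have fewer than 3 C1q UMIs and a gate sum under 3.

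The selected cells were a larger share of the shSdc1 library. They were 0.938% of kept barcodes in shRFP (95% exact binomial interval 0.695% to 1.24%) and 1.94% in shSdc1 (1.59% to 2.33%), a ratio of 2.07 (1.46 to 2.96). Among Lyz2-positive barcodes without Cd3 UMIs, 3002 and 2468 in number, they were 1.63% and 4.38%, a ratio of 2.68 (1.90 to 3.84). Over kept barcodes the same ratio was 1.35 for C1q macrophages, 0.696 for type 2 dendritic cells and 0.165 for monocytes.

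The larger share was seen among cells with a Retnla UMI. Those were 21 in shRFP and 81 in shSdc1, a ratio of their shares of kept barcodes of 3.61 (2.21 to 6.15), whereas the selected cells without a Retnla UMI were 28 and 27, a ratio of 0.904 (0.512 to 1.59). With Retnla taken out of the gate the ratio was 1.37 (0.871 to 2.16) among kept barcodes and 1.77 (1.13 to 2.81) among Lyz2-positive barcodes, and with Ear2 taken out it was 3.21 (2.05 to 5.17). Median depth was lower in shSdc1 (886.5 against 1092 UMIs), and after thinning to 500 UMIs with a sum of at least 2 the ratio was 2.68 (1.80 to 4.06). A split by Retnla was chosen after seeing the data. The ratios carry no test, since each group was 1 library.

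Next, the selected cells were set against the 3 populations they resemble, with UMIs summed per population and library, edgeR's quasi-likelihood test with the library as a block, and Benjamini-Hochberg adjustment over 2697 genes tested. This design has 8 sums and 3 residual degrees of freedom. The 4 sums of a library come from the same pooled tumors, but no cell enters more than 1 of them. The block removes the overall difference between the libraries. The p-values set each difference against how far population differences varied across these 2 libraries only, a spread shared by all populations in the fit. Genes used by any gate are left out of the counts, and genes that follow C1q, class II or Ly6c2 and Chil3 differ partly because those genes define the other populations. Mgl2 was used by no gate and stays in the counts, although it led the clustering. Against C1q macrophages 72 genes were higher in the selected cells (2.67% of those tested) and 69 lower (2.56%), 5.23% in all. DESeq2 gave 37 and 14 for this comparison, and the fit without the library block 36 and 17. Against type 2 dendritic cells 223 were higher (8.27%) and 181 lower (6.71%), 15% in all, and DESeq2 gave 139 and 78. Against monocytes 108 were higher (4%) and 117 lower (4.34%), 8.34% in all, and DESeq2 gave 46 and 57. All 3 comparisons use the same sums of the selected cells.

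A set of 17 of the 2697 genes tested was higher in the selected cells than in both C1q macrophages and type 2 dendritic cells. Singly, 2.67% and 8.27% were higher, and the 2 comparisons share the sums of the selected cells, so their calls are not independent. Among the 17, Fn1 ranked highest by the smaller of its 2 fold changes. Fn1, which encodes the matrix protein fibronectin, stood at 1712 CPM in shRFP and 1465 in shSdc1. It stood at 594 and 157 CPM in C1q macrophages, 67.7 and 35.4 in type 2 dendritic cells and 1157 and 960 in monocytes. The selected cells were above each of these populations in both libraries. The log2 fold change of Fn1 was 2.29 ± 0.24 (SE) against C1q macrophages (edgeR adjusted p = 1.86e-11) and 5.03 ± 0.38 against type 2 dendritic cells (adjusted p = 1.9e-17).

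Ccl6, a CC chemokine, stood at 2865 and 3403 CPM in the selected cells, 1168 and 596 in C1q macrophages, 301 and 115 in type 2 dendritic cells and 1241 and 1800 in monocytes. Its log2 fold change was 1.87 ± 0.21 against C1q macrophages (edgeR adjusted p = 1.62e-10). Ccl9, a related chemokine, stood at 1957 and 1882 CPM, against 985 and 628 in C1q macrophages and 294 and 195 in type 2 dendritic cells. Its log2 fold change against C1q macrophages was 1.23 ± 0.20 (edgeR adjusted p = 6.65e-06). For both chemokines the selected cells were above the other 2 populations in each library. The call of Ccl9 against C1q macrophages was lost among selected cells without a Retnla UMI.

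Mmp12, the macrophage metalloelastase, stood at 646 and 964 CPM in the selected cells, 492 and 266 in C1q macrophages and 113 and 79.7 in type 2 dendritic cells. Its log2 fold change against C1q macrophages was 1.18 ± 0.24 (edgeR adjusted p = 0.000381), and the call was lost with DESeq2. Gda, which encodes guanine deaminase, stood at 314 and 278 CPM against 89.8 and 60.5 in C1q macrophages (log2 fold change 1.97 ± 0.31). Mmp19, another matrix metalloproteinase, had 12 UMIs in the selected cells of each library and 0 in type 2 dendritic cells, so it was at least 11.9-fold higher there against a floor of 3 counts over both libraries. F10, the coagulation factor X gene, stood at 314 and 167 CPM against 102 and 41.2 in C1q macrophages. The calls of F10, Socs6, Hif1a, S100a13, Kctd12 and Itgb2 against C1q macrophages each failed under at least 1 other setting, and those of Gda and Mmp19 failed among selected cells that met the C1q criterion, whereas those of Fn1 and Ccl6 held under every setting of the fit that was run.

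**Figure D3:**
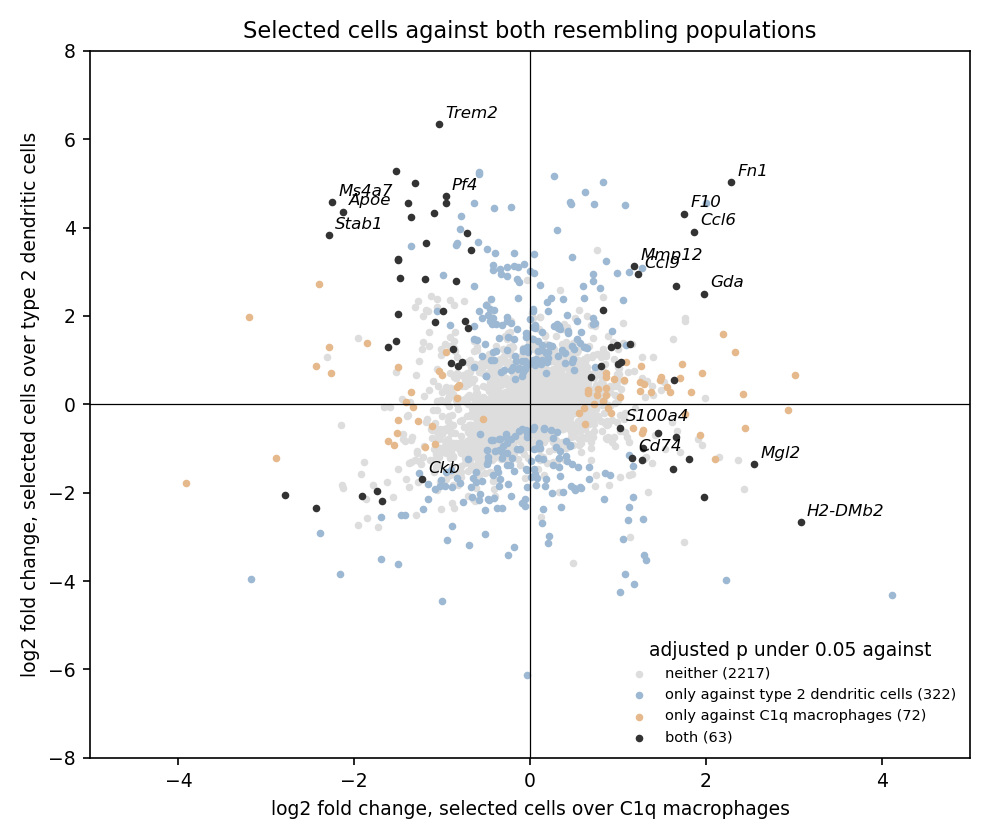
Log2 fold change of the selected cells over C1q macrophages (horizontal) and over type 2 dendritic cells (vertical) for 2674 genes with a UMI in each of the 3 populations and used by no gate (1 gene lies outside the axes). Colours mark genes with an edgeR adjusted p under 0.05 against neither, 1 or both populations, and Fn1 and Ccl6 stand at the upper right.

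Fewer genes were lower than in both, 6 of the 2697 tested, where 2.56% and 6.71% were lower singly. Aimp1, Ckb, Cux1, Hmgn1, Ighm and Selenoh were lower than in both C1q macrophages and type 2 dendritic cells, and Ckb alone among the named 5 held against type 2 dendritic cells under all settings tested. Ckb, the brain-type creatine kinase, stood at 105 and 250.4 CPM, against 381 and 466 in C1q macrophages and 527 and 655 in type 2 dendritic cells. Aimp1 had 1 and 2 UMIs in the selected cells, so its value rests on few counts.

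Several class II genes lay between the 2 populations. Of the 6 class II genes tested and used by no gate, 4 were higher than in C1q macrophages (Cd74, H2-DMa, H2-DMb1 and H2-DMb2) and all 6 were lower than in type 2 dendritic cells, with medians of 1.31 and -1.65 on the log2 scale, beside medians of -0.04 and -0.02 over all genes tested. DESeq2 called 4 in each of these comparisons. Class II UMIs define the type 2 dendritic cells, so the lower side follows partly from that gate. H2-Oa had 0 UMIs in the selected cells. Cd74, the class II invariant chain, stood at 12248 and 13130 CPM in the selected cells, 5622 and 5356 in C1q macrophages, and 28175 and 28908 in type 2 dendritic cells. In each library the Cd74 value of the selected cells, 1 sum over cells, lay between those of the other 2 populations.

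Mgl2, which led the clustering, stood at 664 and 658 CPM, between 167 and 67.1 in C1q macrophages and 1543 and 1807 in type 2 dendritic cells, and had 0 UMIs in monocytes. Other type 2 dendritic cell genes stayed low. Klrd1 had 17.5 and 0 CPM against 519 and 381 in type 2 dendritic cells, Ccl17 had 0 and 27.8 against 286 and 257, and Clec10a had 87.4 and 148 against 677 and 549. Of 9 genes of the type 2 dendritic cell list tested, 3 were higher than in C1q macrophages (H2-DMb2, Itgax and Mgl2) and 5 lower than in type 2 dendritic cells, and DESeq2 called 3 and 5. The calls of Mgl2 are a description, because it led the clustering. Cd209a was excluded from the selected cells and required in type 2 dendritic cells, so the lower levels follow partly from those gates.

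C1q macrophage genes lay between the populations in the other order. Of 18 genes of the C1q macrophage list that no gate used, 11 were lower than in C1q macrophages (5 called with DESeq2) and 14 higher than in type 2 dendritic cells (13 called with DESeq2), with medians of -1.19 and 4.15 on the log2 scale. With the 1 gene without a UMI in type 2 dendritic cells set to its bound, the second median was 3.90. Apoe, the lipid carrier, stood at 1659.8 and 3273 CPM in the selected cells, 7473 and 13518 in C1q macrophages, and 97.9 and 133 in type 2 dendritic cells (log2 fold change -2.13 ± 0.18 and 4.36 ± 0.27). Stab1, a scavenger receptor, stood at 69.9 and 167 CPM against 484 and 686 in C1q macrophages. Trem2, a lipid-sensing receptor, stood at 297 and 427 CPM against 649 and 788. Mrc1, the mannose receptor, stood at 454 and 389 CPM against 417 and 413 in C1q macrophages, and the difference did not pass the test (log2 fold change -0.04 ± 0.25).

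**Figure D4:**
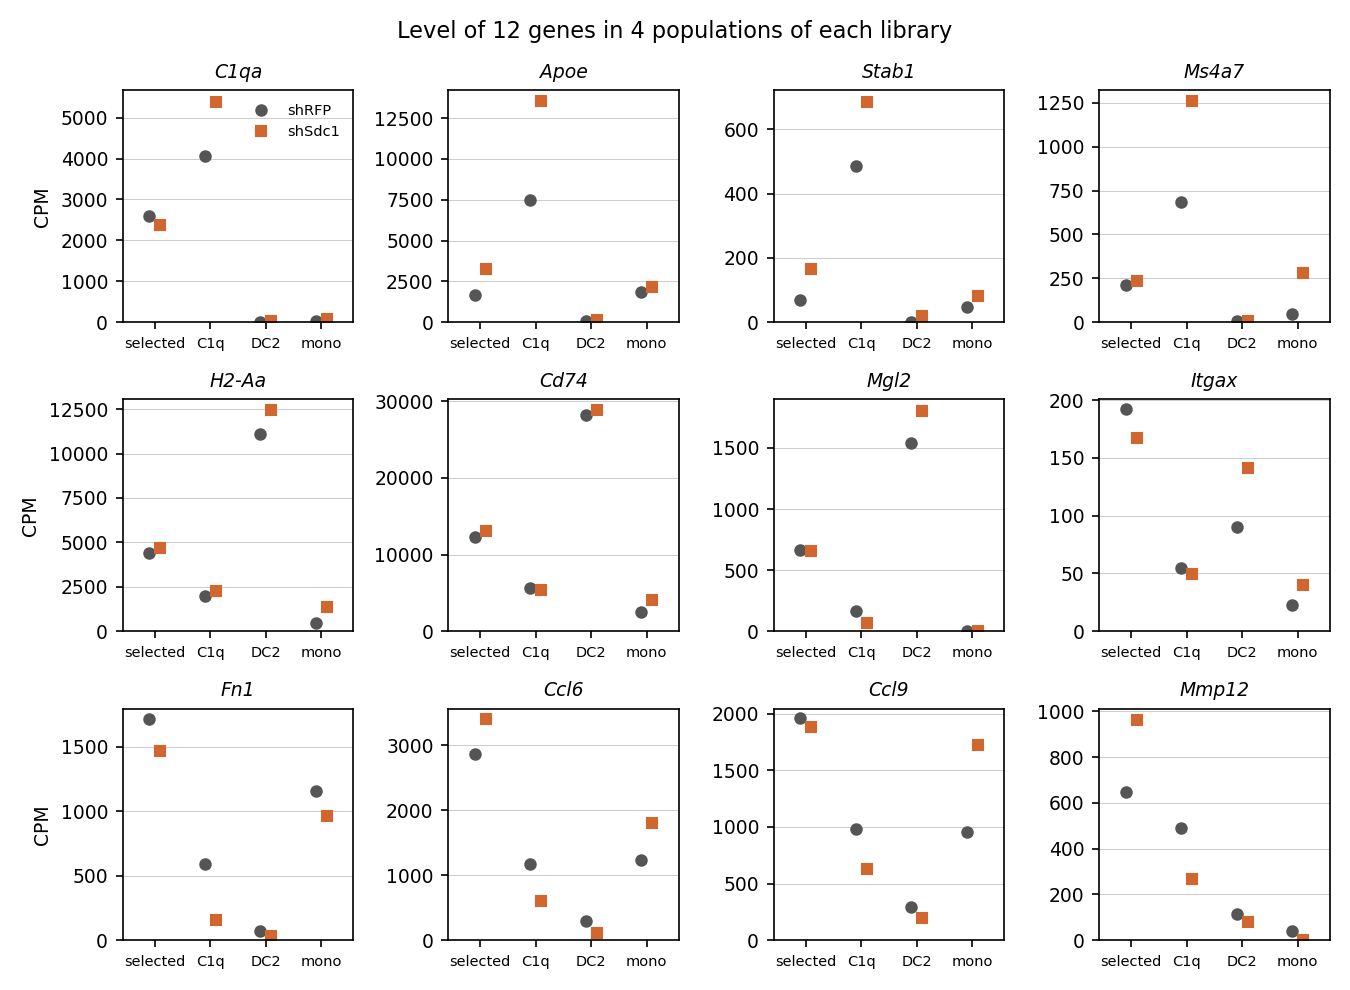
CPM of 12 genes in the selected cells, C1q macrophages, type 2 dendritic cells (DC2) and monocytes (mono) of shRFP (circles) and shSdc1 (squares), each value 1 sum over cells. C1qa and H2-Aa were used by the gates of the other populations. Apoe and Cd74 lie between the C1q macrophages and the type 2 dendritic cells in the selected cells, and Fn1 and Ccl6 lie above both.

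A matched comparison was added after seeing the data, with the selected cells that met the C1q criterion set against C1q macrophages, so that both sides met it. Here 15 genes were higher and 13 lower of 2732 tested, and 14 of the 15 and all 13 had also been called with all selected cells. These 26 and 66 cells are part of the selected cells, and the C1q macrophage sums were the same. The shared calls are therefore no independent check of the first comparison. Fn1 (log2 fold change 1.63 ± 0.29), Ccl6 (1.63 ± 0.23), Ccl9 (1.21 ± 0.23), Cd74 (1.15 ± 0.19) and Mgl2 (2.42 ± 0.32) were among those higher. Mgl2 led the clustering, so its value is a description. Apoe (-1.44 ± 0.20), Stab1 (-1.65 ± 0.35), Ms4a7 (-1.58 ± 0.31) and Lgmn (-0.87 ± 0.23) were among those lower. Clec10a was called here only.

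Of 12 classical monocyte genes tested, 5 were higher than in C1q macrophages (Ccr2, Fn1, Ifitm6, S100a4 and S100a6; 5 called with DESeq2), with Fn1 higher than in the monocytes as well. Plac8 stood at 139.8 and 241 CPM against 3487 and 1680 in the monocytes, and Hp at 17.5 and 0 against 556 and 280, and both were lower in the selected cells by the test (edgeR adjusted p = 6.51e-16 and 1.53e-05). Ccr2, the receptor that brings monocytes into tissue, stood at 664 and 417 CPM, 216 and 128 in C1q macrophages, and 678 and 880 in monocytes. Cx3cr1 stood at 17.5 and 46.4 CPM, against 149.9 and 175 in C1q macrophages. Fn1, Ccl6, Ccl9, Crip1, Mmp12 and Pltp were the 6 genes, of 2697 tested, higher than in all 3 populations.

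Genes around IL-4, IL-13 and GM-CSF were described by 3 lists. Of 11 type 2 activation genes tested, Mgl2 alone passed against C1q macrophages, 6 had an unadjusted p under 0.05, and DESeq2 called 1. Mgl2 led the clustering behind the gate, so its call is a description, and none of the other genes of this list passed with edgeR. The list median was 0.63 on the log2 scale, and it turned to -0.30 in selected cells without a Retnla UMI and -0.10 in those that met the C1q criterion. Arg1 stood at 209.7 and 417 CPM against 440.2 and 472. Of 6 genes of IL-4 and IL-13 signalling tested, 0 passed against C1q macrophages with edgeR, 1 had an unadjusted p under 0.05, and 0 passed with DESeq2. Of 10 genes of the GM-CSF list tested, Csf2ra, the alpha chain of its receptor, and Itgax, the integrin CD11c, were higher than in C1q macrophages, beside 2.67% of all genes. In that list 6 genes had an unadjusted p under 0.05, and DESeq2 called 1. Csf2ra stood at 507 and 371 CPM against 218 and 232, and Itgax at 192 and 167 against 54.5 and 49.8. Against type 2 dendritic cells the list medians were -0.33 (type 2 activation), -0.45 (IL-4 and IL-13 signalling) and -0.57 (GM-CSF). There 2 type 2 activation genes were higher and 3 lower, and 0 of the signalling genes passed. In the GM-CSF list Fabp5 was higher and Jak2 lower, and Csf2ra and Itgax were not called.

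Of 15 coagulation and matrix genes, 4 were higher than in C1q macrophages (F10, Fn1, Mmp12 and Mmp19) and Spp1, the osteopontin gene, was lower, and DESeq2 called 3. Of 17 chemokines, Ccl6 and Ccl9 were higher and 5 were lower (Ccl12, Ccl4, Ccl7, Cxcl16 and Pf4), and DESeq2 called 3. The chemokine median was -0.51 on the log2 scale. Of 17 lipid handling genes, 5 were lower than in C1q macrophages (Abca1, Apoe, Ctsb, Ctsd and Trem2) and DESeq2 called 1. In the same list 13 were higher than in type 2 dendritic cells, a count DESeq2 gave as well. Of 19 genes that respond to tissue dissociation, Jun alone was lower than in C1q macrophages, and DESeq2 called 0.

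Between the libraries, the selected cells differed in 103 of 510 genes with at least 50 UMIs over both libraries by at least 1.5-fold, 53 higher in shSdc1 (10.4%) and 50 lower (9.8%), and the median log2 ratio of all genes was 0.00. These are counts of size, not of a test. Scaling by TMM factors moved the median to 0.23 and gave 92 higher and 22 lower, 80.7% of the calls higher against 51.5%, so folds nearer to 1.5 depend on the scaling. By the same size rule, genes of the other populations differed as well. In C1q macrophages 7.17% of 6065 genes were higher in shSdc1 and 5.70% lower. In type 2 dendritic cells the shares were 6.02% and 11.8% of 747 genes, and in monocytes 8.91% and 19.8% of 516. The genes of the selected cells named next were ranked by the bound of the interval that lies nearest to 1.

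Several genes of macrophages were higher in the shSdc1 selected cells. Pf4, a platelet-factor chemokine, stood at 524 CPM in shRFP and 1456 in shSdc1, a ratio of 2.78 (1.87 to 4.25). Apoe stood at 1659.8 and 3273 CPM, a ratio of 1.97 (1.57 to 2.50). The ratios of Hmox1, the heme-degrading enzyme, Lgmn and Ctsl, lysosomal proteases, were 2.24 (1.62 to 3.16), 2.53 (1.59 to 4.21) and 2.24 (1.33 to 3.98). B2m, the class I light chain, had a ratio of 1.70 (1.38 to 2.10). In C1q macrophages the ratios of Pf4, Apoe, Hmox1, Lgmn, Ctsl and B2m were 1.13, 1.81, 1.18, 1.20, 0.920 and 1.47, with intervals above 1 for all of these but Ctsl. The difference of these ratios from those of the selected cells was not tested.

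Heat shock and chemokine genes were lower in shSdc1. Cxcl10, an interferon-induced chemokine, stood at 926 and 167 CPM, a ratio of 0.180 (0.0994 to 0.313), and 39.6% of its shRFP UMIs came from 1 cell. Hspa1b and Hspa1a, heat shock proteins, had ratios of 0.271 (0.186 to 0.391) and 0.289 (0.187 to 0.441), and Atf3, a stress-induced transcription factor, 0.279 (0.174 to 0.438). Cxcl2, Ccl2 and Ccl4 had ratios of 0.471, 0.493 and 0.486. In C1q macrophages the ratio of Cxcl10 was 0.890, with an interval from 0.791 that reached 1, and those of Hspa1b, Hspa1a, Atf3, Cxcl2, Ccl2 and Ccl4 were 0.451, 0.445, 0.533, 0.457, 0.629 and 0.659. Of the 12 dissociation genes measured, 7 were at least 1.5-fold lower and none higher, with a median log2 ratio of -0.62, and their part in the result was not tested.

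By list, 6 of 12 lipid handling genes were higher (median log2 ratio 0.56) and 4 of 8 C1q macrophage genes were higher (0.60). Of 10 chemokines, 6 were lower and 2 higher (median -0.83). Under TMM scaling the named genes kept at least 1.5-fold, with ratios of 1.99 to 3.49 for those higher and 0.211 to 0.577 for those lower. Ear2 and Clec4b1 came to 0.735 and 0.638.

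The macrophage genes differed most between the libraries among cells without a Retnla UMI. There the ratios of Apoe, Hmox1, Pf4 and Lgmn were 6.19 (4.15 to 9.55), 6.92, 7.73 (3.82 to 17.7) and 6.03 (2.80 to 14.9). In cells with a Retnla UMI they were 0.823 (0.619 to 1.11), 0.994, 1.27 (0.788 to 2.15) and 1.25 (0.690 to 2.41). Cxcl10 had a ratio of 0.0478 (0.00562 to 0.182) in cells without and 0.751 (0.279 to 2.34) in cells with a Retnla UMI. Hspa1b, by contrast, was lower in both, at 0.468 and 0.174. The intervals cover counting error over 28 and 27 cells without, and 21 and 81 with, a Retnla UMI.

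**Figure D5:**
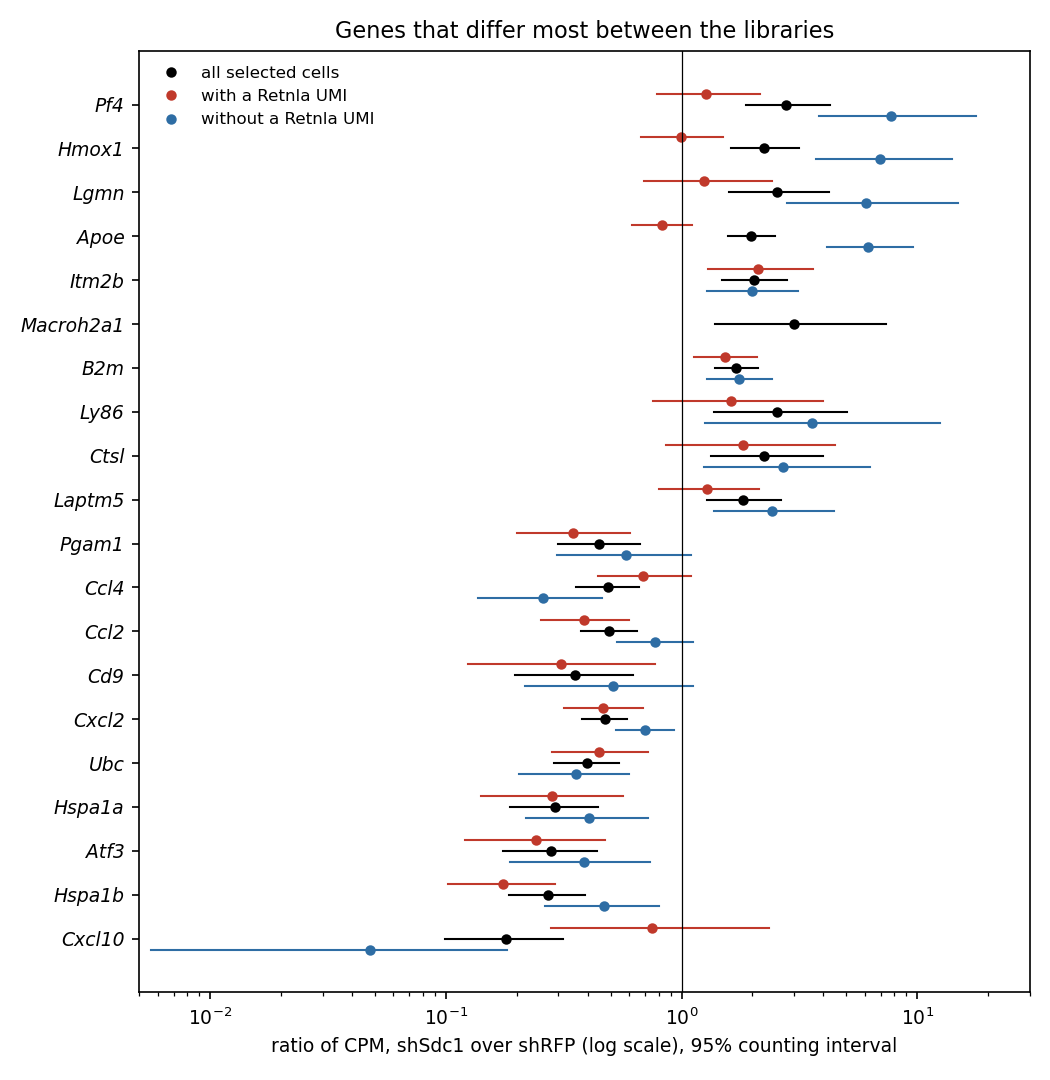
Ratio of CPM in shSdc1 over shRFP (log axis) with its 95% exact conditional counting interval for the 10 genes higher and the 10 lower in the shSdc1 selected cells, for all selected cells (black), those with a Retnla UMI (red) and those without (blue). Apoe stands at 0.823 with and 6.19 without a Retnla UMI. Macroh2a1 has no split values drawn.

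Cells with and without a Retnla UMI differed in other genes as well, by share of cells with a UMI after thinning, over 18 and 66 cells with and 27 and 25 without. The gene of a 5-gene rule with the largest difference was Arpc1b, an actin regulator, at 36.9% with and 63.5% without. Ccl6 was at 82.1% and 55.8%, Oaz1 at 56.0% and 34.6%, Ccl2 at 21.4% and 42.3%, and Il1b at 2.38% and 23.1%. These shares pool libraries of unequal mix. The gap of Oaz1 was 61.1% against 22.2% in shRFP and 54.5% against 48% in shSdc1, and that of Ccl6 was 77.8% against 55.6% and 83.3% against 56%. Arpc1b was at 22.2% against 63.0% in shRFP and 40.9% against 64% in shSdc1. Mgl2 was at 16.7% and 34.6% and Ear2 at 23.8% and 48.1%, and both of these were in or beside the gate. The genes were chosen for the difference, so they are a description.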

How the data were processed

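Live CD45+ cells were profiled in 2 droplet libraries of 6 pooled tumors each. The authors deposited unnormalized UMI counts for each barcode. Per the file headers these came from Cell Ranger 6.1.1, and the build was mm10 per the submitters' processing notes. Which annotation they used was not given in the sources. The files held 5786 and 5902 barcodes with 4255928 and 4370725 UMIs. Members, comparators and 31 gene lists were chosen with earlier results of these data known; 2 of 361 listed symbols had no match. Scrublet's automatic threshold marked 1 and 0 barcodes, so doublets were kept; removing the highest-scoring 242 and 263 was an alternative. The libraries shared 20 barcode sequences, none in selected cells. Sums were tested with edgeR 4.0.16 (TMM, filterByExpr, library block); limits are exact Poisson, binomial and conditional binomial, at 95%. Named genes were those called the same way against C1q macrophages and type 2 dendritic cells in both libraries (up to 12 higher and 8 lower), and, between libraries, the 10 higher and 10 lower genes (at least 50 UMIs and 1.5-fold) whose interval bound nearest to 1 was most extreme. Procedures were tested on simulated data. Tools were R 4.3.3, DESeq2 1.42.0, scanpy 1.11.5 and Biopython 1.88.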

Additional observations from a re-analysis of the deposited data

How the results depend on the processing

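Counts are listed as higher and lower than C1q macrophages, then type 2 dendritic cells, then monocytes. DESeq2 gave 37, 14, 139, 78, 46 and 57, every cell thinned to 500 UMIs 36, 37, 128, 79, 55 and 71, and selected cells without a Retnla UMI 30, 39, 142, 90, 63 and 75. No filter on low counts gave 39 higher than C1q macrophages, 86 lower than type 2 dendritic cells, and 52 and 51 against monocytes. The fit with no replicate block (no library term) gave 36 and 17, 108 lower than type 2 dendritic cells, and 58 and 66. A minimum of 500 genes per barcode gave 47 and 36, 93 lower, and 28 and 32. A gate sum of at least 5 gave 135 higher than type 2 dendritic cells and 61 higher than monocytes. Selected cells under 3 C1q UMIs gave 107 lower than C1q macrophages, 88 and 67 against type 2 dendritic cells and 51 higher than monocytes, and those at 3 or more gave 15 and 13. Fitting only the 2 populations compared gave 62 higher than monocytes. No count could be made without a library.

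Share ratios were 1.37 without Retnla in the gate, 3.21 without Ear2, 3.61 with and 0.904 without a Retnla UMI among kept barcodes, and 1.77 (1.13 to 2.81), 4.16, 4.69 and 1.17 among Lyz2-positive cells. Genes at least 1.5-fold higher and lower in shSdc1 numbered 92 and 22 with TMM, 226 and 232 at 20 UMIs, 20 and 18 at 100 UMIs, 1422 and 2133 with no minimum, 24 and 31 at a gate sum of 5, 24 and 15 under 3 C1q UMIs. With DESeq2 factors 31 were lower, at 500 genes 35 were higher, and in cells with a Retnla UMI 29 were higher.

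Reversed values, on the log2 scale, were as follows. Mmp19 against C1q macrophages was -0.17 in cells without a Retnla UMI. The type 2 activation median was -0.30 in those cells and -0.10 in cells with C1q. The GM-CSF median was -0.27 with no filter and -0.019 with 2 populations. The type 1 dendritic cell median was -1.04 with no filter, -0.30 with 2 populations, -0.0056 at a gate sum of 5 and -0.70 without Retnla. The nonclassical median against type 2 dendritic cells was -0.053 with no filter, -0.53 at 500 genes, -4.76 under 3 C1q UMIs and -0.42 without Retnla, and against monocytes 0.068 with C1q. The C1q macrophage median against monocytes was -1.16 under 3 C1q UMIs. As plain ratios of shSdc1 to shRFP, not on the log2 scale, Hmox1 and Apoe came to 0.994 and 0.823 in cells with a Retnla UMI. The cause was not tested. No paired analysis was possible because each group was 1 library.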
